A study of Pinus pinaster with 24 samples.

Results

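Transcript levels in roots were set against those in needles of maritime pine (Pinus pinaster) seedlings that had received sulfate after a period without sulfur. The comparison used 6 of the 24 RNA-seq libraries of the study, 3 from roots and 3 from needles, all from the sulfate treatment. Of 67271 transcript features in the deposited table, 64945 reached a value of 1 in 3 or more of these 6 libraries and were tested, and 2326 stayed below that filter. The filter let 5978 features in through the roots alone and 4650 through the needles alone, so those had to differ. A value of at least 1 in all 6 libraries was reached by 48556 features.

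Roots take up sulfate from the soil through membrane transporters, and the xylem carries much of it to the shoot. In plants, leaf plastids are a main site where sulfate is reduced to sulfide and built into cysteine, from which methionine and glutathione are made. Needles are the photosynthetic leaves of pines and hold the chloroplast machinery for light capture and carbon fixation, while roots are mostly non-green and take up water and ions.

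Every group in the study shared the same history. Seedlings of the Segura-Alcaraz seed source were fed 0.3 mM KNO3 weekly for 3 months, starting when they were 1 month old, and so were short of sulfur. At 4 months of age the sulfate group received 0.5 mM K2SO4 and the control group 1 mM KCl, and the organs were frozen 24 h afterwards. Tissue of 13 to 14 seedlings was pooled for a library, and the labels call the 3 pools of a group biological replicates. The study also holds stem and cotyledons, the seed leaves, from both treatments. One seed source and one time point were sampled, and no seedlings with a steady sulfur supply were among the groups.

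Values are CPM (read counts relative to library size) with a library size that the authors scaled, called normalized CPM here. Between 92664463 and 104403811 reads stood behind a root library and between 97443848 and 100314894 behind a needle library. A count of 3 reads corresponded to 0.0240 to 0.0268 normalized CPM in roots and to 0.0313 to 0.0351 in needles. The features carry identifiers without gene names, so the organ labels were not checked against marker genes and functions are not given. Needle library 3 stood apart from the other needle libraries: it was the farthest of the 3 for 48.8% of the tested features, against 28.7% and 22.5% for libraries 1 and 2. The root libraries shared that place evenly, at 31.4, 36.0 and 32.6%. The median standard deviation on the log2 scale was 0.10 in roots and 0.18 in needles.

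Most features differed between the organs. In limma with Benjamini-Hochberg adjustment at 0.05, 24643 features were higher in roots and 20199 were higher in needles, which is 37.9% and 31.1% of those tested and 69.0% together. The median log2 difference was 1.00 among the root-sided features and -1.16 among the needle-sided ones, and 63.6% of all tested features lay within 2-fold. No overlap between the 3 root and 3 needle values was found for 26218 features on the root side (40.4%) and 21715 on the needle side (33.4%). These include the 5978 features let in through the roots alone and the 4650 through the needles alone, for which the filter fixed this in advance. The remaining 20103 features were not called, and for 11922 features (18.4%) the 95% interval of the log2 difference lay within 0.5 on either side of 0. In whole-organ samples, fewer cells of a type and less RNA per cell cannot be told apart.

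The balance between the sides rested on how libraries were scaled. The authors' factors were 1.20 to 1.21 in roots and 0.877 to 0.984 in needles. With plain CPM, 35398 features were higher in roots and 14263 in needles, so the root side held 71.3% of the calls against 55.0% with the deposited scaling, and the median of all features moved by 0.35 on the log2 scale. With median-ratio scaling the counts were 22091 and 22183, and the root share was 49.9%. Under all 3 scalings 22091 features were higher in roots and 14263 in needles. Without needle library 3 the calls numbered 27671 and 21801, of which 24213 and 19873 were shared with the calls from all 6 libraries.

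**Figure D1:**
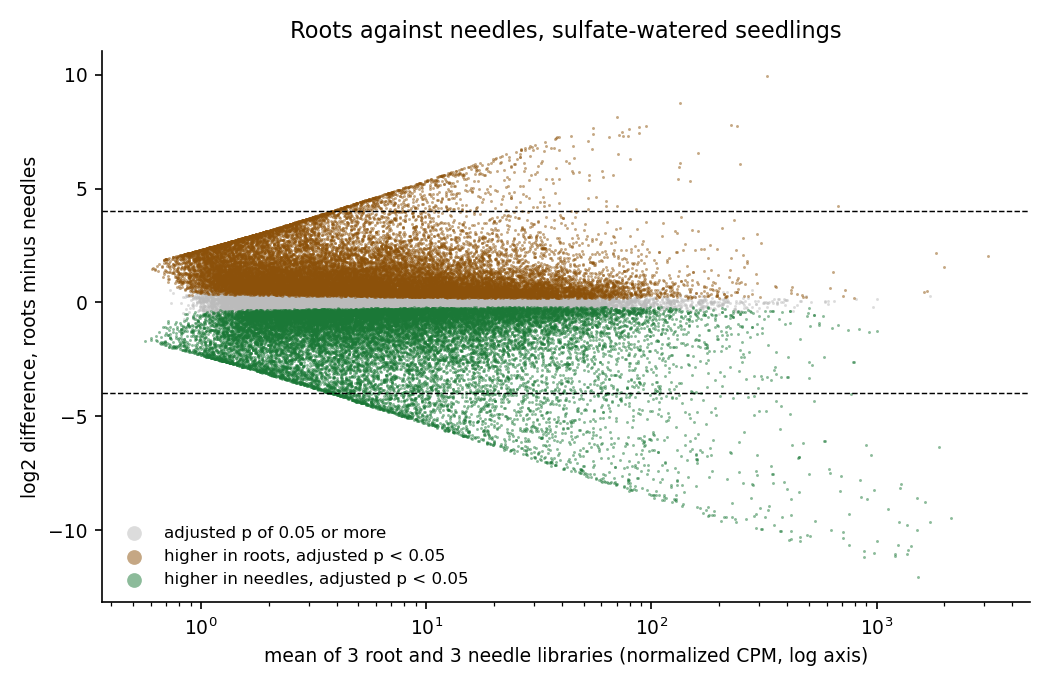
Log2 difference of roots over needles (y axis, on log2 of normalized CPM plus 0.5) against the mean level over the 6 sulfate libraries (x axis, normalized CPM, log scale), one point per tested feature, coloured by the limma call. Features past 16-fold spread farther on the needle side, down to -12.08, than on the root side, up to 9.96; the dashed lines mark 16-fold, and the straight edges come from the pseudocount.

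With the pseudocount of 0.5, large differences lay more often on the needle side. At least 16-fold differences were found for 757 features higher in roots (1.17% of those tested) and 1710 higher in needles (2.63%). These counts were 2658 and 3164 with a pseudocount of 0.1, 140 and 716 with a pseudocount of 2, 3145 and 3621 with edgeR and 3123 and 3665 with DESeq2, so the needle side held more in each but by a smaller ratio under all of these except the pseudocount of 2. Between 2-fold and 4-fold the order was the other way, with 7052 features higher in roots and 5178 higher in needles. At 64-fold and above the numbers were 77 in roots and 427 in needles. Among the 1136 features with a mean level of at least 100 normalized CPM, 52.8% were higher in needles and 20.4% in roots, and 222 were at least 16-fold higher in needles against 11 in roots. Over all tested features 31.1% were higher in needles and 37.9% in roots. The mean level averaged the root and needle means of these same libraries, so a feature high in a single organ could enter. The counts of this class are therefore a description without a test.

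The needle-sided features also took a larger part of their organ's RNA signal. The 1710 features made up 23.4, 21.9 and 18.6% of the summed signal in needle libraries 1, 2 and 3, and 0.276 ± 0.008% (SD, n = 3) in roots. The 757 root-sided features made up 3.07, 3.14 and 2.97% in the root libraries and 0.032 ± 0.004% in needles. Needle library 3 held the lowest share, and 1446 of the 1710 features were lower in it than in the mean of the other needle libraries. These features were chosen on the same libraries, so the shares are a description without a test.

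Most of the most abundant transcripts of needles differed strongly from roots. Of the 100 features with the highest mean in needles, 91 were called higher there and 71 by at least 16-fold, with a median log2 difference of 7.58 toward needles. Over all tested features 31.1% were called higher in needles and 2.63% by at least 16-fold. Of the 100 highest in roots, 45 were called higher in roots, 18 were called lower, and 69 lay within 2-fold. The share called higher in roots was near the 37.9% of all tested features, and the share within 2-fold near their 63.6%. Each list was chosen on its organ's levels in these same libraries, which favours calls toward that organ, so the counts are a description without a test. Both lists shared 19 features. Adding features from the most abundant down, 50% of the summed signal was reached with 5251 to 5357 features in roots and with 2844 to 3643 in needles.

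Among root-sided features, PpCO2_126178 had the largest difference. Its level was 602, 635 and 725 normalized CPM in the roots and 0.164, 0.187 and 0.115 in the needles, a log2 difference of 9.96 ± 0.10 (SE; adjusted p = 4.18e-09). No root value came near a needle value, and the stem held 274 ± 35.0 (SD, n = 3). The second, PpCO2_94487, had 138, 143 and 139 normalized CPM in roots and 0 reads in all 3 needle libraries, which puts it at least 4231-fold higher in roots against a floor of 3 reads per library. Its level was also low in the other shoot organs, at 0.185 ± 0.255 in stem and 0.329 ± 0.239 in cotyledons. The pseudocount limits the log2 difference of a feature at 0 reads. In edgeR the order was the other way, with 16.80 for PpCO2_94487 and 11.98 for PpCO2_126178. The 16.80 depends on how edgeR treats the 0 reads in needles, so that order is not a measured one.

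The other root-sided features named by size had different patterns in the stem. PpCO2_55317 had 411, 539 and 394 normalized CPM in roots and 2.20, 2.09 and 0.657 in needles (log2 difference 7.79 ± 0.31, adjusted p = 2.04e-07). PpCO2_116533 had 200, 164 and 202 in roots and 0.363, 0.441 and 0.302 in needles (7.76 ± 0.11, adjusted p = 4.46e-09). PpCO2_7409 had 187, 181 and 160 in roots and 0.363, 0.386 and 0.292 in needles (7.70 ± 0.10, adjusted p = 4.46e-09). All root values of these features lay above all needle values. In stem PpCO2_116533 reached 204 ± 19.7, against a root mean of 189 ± 21.4, whereas PpCO2_7409 reached 36.5 ± 1.18.

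The highest level among root features past 16-fold belonged to PpCO2_77960, at 1283, 1389 and 1172 normalized CPM. It was also present in needles, at 50.5, 67.3 and 91.3, so its log2 difference of 4.23 ± 0.20 was among the smaller of this class (adjusted p = 4.39e-07). PpCO2_141676 had 459, 527 and 477 in roots and 3.45, 10.6 and 8.24 in needles (6.07 ± 0.33, adjusted p = 1.16e-06). PpCO2_55318, whose identifier follows that of PpCO2_55317, had 446, 560 and 427 in roots and 2.16, 2.64 and 0.740 in needles (7.77 ± 0.32, adjusted p = 2.29e-07). These neighbours had similar levels in each library, and reads shared between near-identical copies could have been split by the authors' counting.

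With the pseudocount of 0.5 the log2 differences on the needle side were larger. In edgeR the first of them, PpCO2_37288, had -13.77, against 16.80 for PpCO2_94487 on the root side. PpCO2_94487 had 0 reads in all 3 needle libraries, so its 16.80 depends on how edgeR treats 0 reads and is not a measured size. PpCO2_37288 had 3253, 3581 and 2288 normalized CPM in needles and 0, 0.572 and 0.112 in roots, a log2 difference of -12.08 ± 0.28 (adjusted p = 1.72e-08). PpCO2_149306 had 2069, 1809 and 1407 in needles and 0.0534, 0.671 and 0.144 in roots (-11.19 ± 0.27, adjusted p = 2.01e-08). The lowest needle value came from library 3 in both, and the highest root value from library 2. PpCO2_112997, PpCO2_40607 and PpCO2_28811 followed with log2 differences of -11.13, -11.07 and -10.94, and their needle means were 2425, 2730 and 1767. In these 3 features, too, needle library 3 was lowest and root library 2 highest.

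PpCO2_40606 was the most abundant needle-sided feature past 16-fold, at 5008, 4318 and 3521 normalized CPM in needles and 4.57, 7.87 and 4.58 in roots (log2 difference -9.47 ± 0.21, adjusted p = 1.46e-08). PpCO2_161976 reached 4535, 3899 and 2788 in needles but kept 47.1, 43.8 and 43.0 in roots (-6.34 ± 0.17, adjusted p = 2.46e-08). PpCO2_166271 had 4721, 3464 and 2222 in needles and 3.81, 4.37 and 2.93 in roots (-9.64 ± 0.26, adjusted p = 3.01e-08). Its needle values spread by more than 2-fold between libraries, yet each lay far above every root value.

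**Figure D2:**
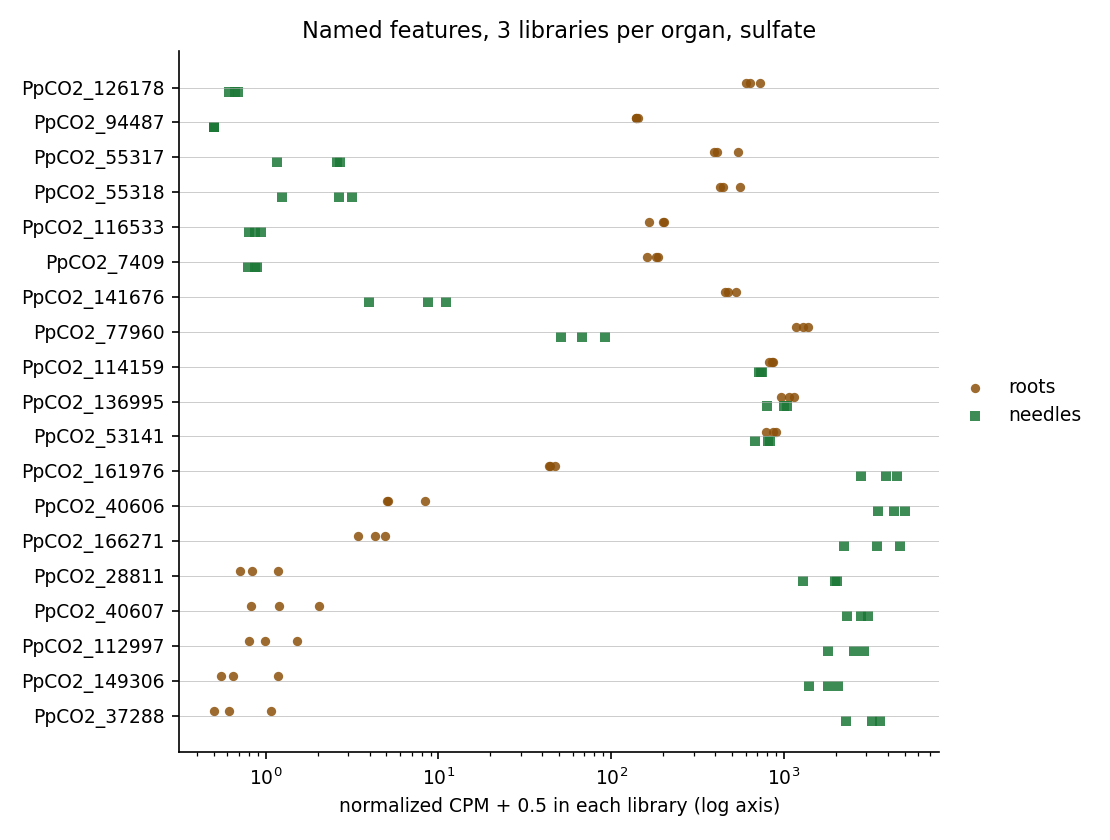
Level of each named feature in the 3 root and 3 needle libraries with sulfate (x axis, normalized CPM plus 0.5, log scale), one row per feature and one point per library. Root-sided and needle-sided features are separated by an empty range between the organs, while the 3 features chosen for similar levels lie together.

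Some abundant features had like levels in both organs. The 3 named were the most abundant whose 95% interval of the log2 difference stayed within 0.5 on either side of 0. PpCO2_136995 had 1071, 963 and 1141 normalized CPM in roots and 1040, 1002 and 794 in needles, with an interval of -0.12 to 0.45. It was 1 of 6 features with neighbouring identifiers and correlated levels, whose log2 differences ran from 0.17 to 3.15. Of these, 4 were called higher in roots. PpCO2_53141 had an interval of -0.10 to 0.38 around a log2 difference of 0.14. In the control libraries limma called it higher in roots, by 0.38 (adjusted p = 0.00422). PpCO2_114159 was called slightly higher in roots, by 0.20 on the log2 scale (interval 0.03 to 0.37, adjusted p = 0.0381), and this call was lost under 13 of 18 alternatives. With plain CPM, PpCO2_136995 and PpCO2_53141 were called higher in roots, by 0.55 and 0.53.

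Transcripts without any read in one organ were more numerous for needles. With 0 reads in all 3 needle libraries and a mean of at least 1 in roots there were 780 features, of which 763 were tested, with a median root level of 3.39 and 118 at 10 or more. With 0 reads in all 3 root libraries and a mean of at least 1 in needles there were 280, with a median needle level of 4.14 and 58 at 10 or more. Without root library 2 the latter number was 457, and 177 features had reads in root library 2 alone, at a median of 0.0179. The highest of the features at 0 in roots, chosen after its values were seen, was PpCO2_1536, at 76.4, 69.2 and 68.5 in needles, at least 2762-fold above the floor of 3 reads.

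Stem and cotyledons stood differently toward the 2 sets. Of the 757 root-sided features past 16-fold, 176 (23.2%) lay within 4-fold of the root level in stem and 0 did so in cotyledons, where 663 (87.6%) were at least 16-fold below. Of the 1710 needle-sided features, 1501 (87.8%) lay within 4-fold of the needle level in cotyledons and 94 (5.50%) in stem. The shares within 4-fold over all tested features are not given here. These shares therefore describe the sets and do not show a trait particular to them. The median level of the needle-sided set was 35.9 normalized CPM in needles, 25.7 in cotyledons, 2.02 in stem and 0.302 in roots. For the root-sided set the medians were 18.2 in roots, 0.665 in stem, 0.107 in cotyledons and 0.083 in needles.

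Features high in a single organ of the 4 were a larger share of the root set. At least 16-fold below in both other organs were 345 (45.6%) of the root-sided features and 119 (6.96%) of the needle-sided ones. The share over all tested features is not given here, so these shares describe the sets and do not show a trait particular to them. An example from each, chosen after the values were seen, shows the pattern. PpCO2_106936 had 242, 260 and 269 normalized CPM in roots, 8.90, 4.91 and 3.64 in needles, 2.88 ± 2.39 in stem and 0.532 ± 0.345 in cotyledons. PpCO2_162176 had 421, 300 and 296 in needles, 0, 0.143 and 0 in roots, 0.0889 ± 0.154 in stem and 0.0215 ± 0.0372 in cotyledons. The latter was thus low in cotyledons, unlike most of the needle set.

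**Figure D3:**
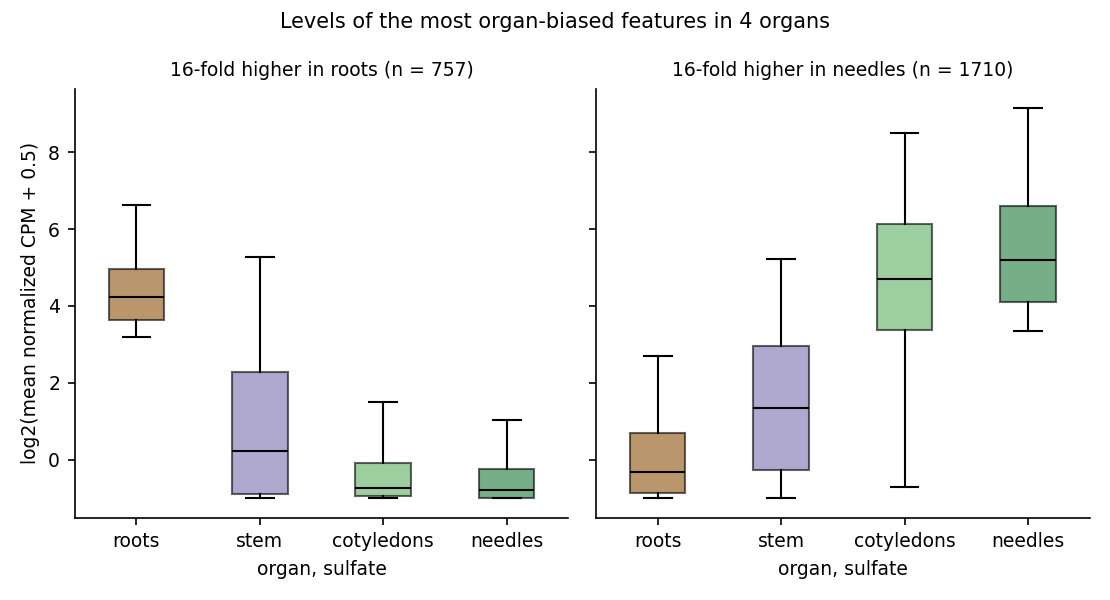
Mean levels in the 4 organs of the sulfate seedlings (y axis, log2 of normalized CPM plus 0.5; box: quartiles with the median, whiskers: 5th to 95th percentile over features) for the features at least 16-fold higher in roots (757) and in needles (1710). The root-sided set is low in needles and cotyledons, whereas the needle-sided set is nearly as high in cotyledons as in needles, with medians of 25.7 and 35.9.

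Features with neighbouring identifiers often moved together. A run was defined as features whose numbers are at most 2 apart and whose log2 levels correlate above 0.8 over the 24 libraries, a measure that organ differences themselves raise. The 757 root-sided features fell into 465 runs and the 1710 needle-sided ones into 790, so the feature counts overstate the number of separate patterns. All 64945 tested features fell into 34498 runs, so such grouping was common outside the 2 sets too. In a run of 2 or more were 67.2% of all tested features, 79.7% of the root-sided set and 88.9% of the needle-sided set. PpCO2_17949 to PpCO2_17966 formed the largest needle-sided run, with 17 of 18 features past 16-fold and a summed level of 2417 ± 319 normalized CPM in needles, 1.16 ± 0.70 in roots and 1587 ± 151 in cotyledons. PpCO2_136215 to PpCO2_136224 was a root-sided run in which 10 of 10 features passed 16-fold, at a summed 218 ± 12.3 in roots and 0 reads in needles. Whether members of a run are copies or parts of one transcript was not tested.

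The same organ contrast in the control libraries, which share no sample with the sulfate ones, gave 23210 features higher in roots (35.6% of 65211 tested) and 19583 higher in needles (30.0%), or 65.6% together, of which 709 (1.09%) and 1638 (2.51%) passed 16-fold. Of the 757 root-sided features of the sulfate seedlings 756 were tested in control, all 756 were called in the same direction, and 633 passed 16-fold there. All 1710 needle-sided features were called in the same direction in control, and 1535 passed 16-fold. Their median log2 differences were 4.69 with sulfate and 4.62 in control for the root side, and -4.95 and -4.88 for the needle side. Across 64395 features tested in both treatments the log2 differences had a Pearson correlation of 0.983, given as a description because features are not independent replicates.

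**Figure D4:**
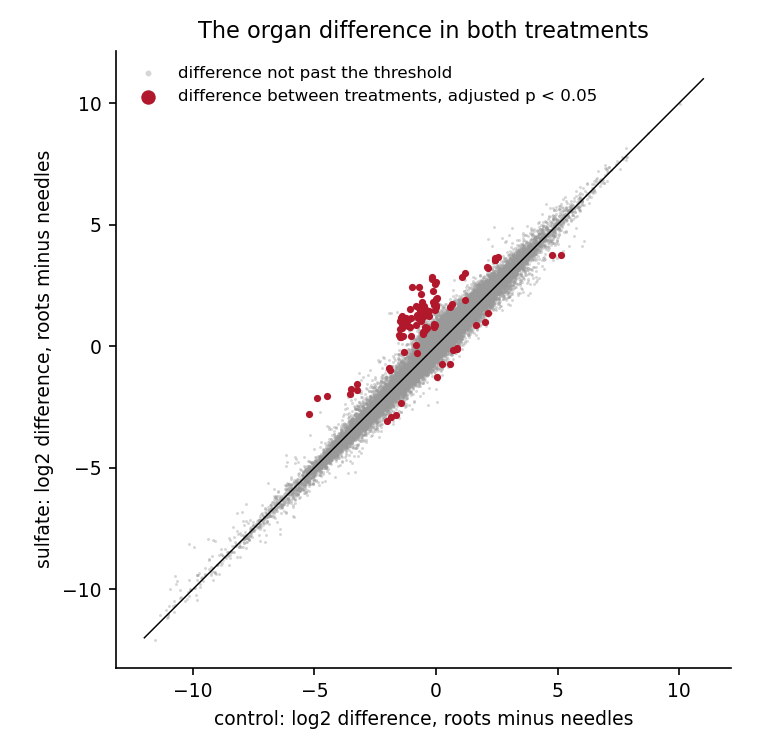
Log2 difference of roots over needles in control (x axis) and sulfate libraries (y axis), one point per feature tested in both, with the features whose difference depended on the treatment coloured. Most points lie along the diagonal, and the coloured ones lie off it, more of them above it than below; the line marks equal differences.

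Few features were called for an organ difference that depended on the treatment, and features not called may still differ. In simulated data this test recovered 32.5% of upward and 35% of downward 2-fold changes. The difference between the sulfate and control contrasts, tested in 12 libraries, was called for 127 features that were more root-sided with sulfate (0.192% of 66180 tested) and 15 that were more needle-sided (0.0227%), and 5546 had an unadjusted p under 0.05. In the 127 features the median log2 change from control to sulfate was -0.96 in roots and -2.84 in needles, and 113 of them (89.0%) had lower means with sulfate in both organs, against 25.2% of all features tested. Of the 96 tested in both organ contrasts, 70 (72.9%) had estimates of opposite sign in the treatments, against 9.81% of all features tested in both. For 48 of these 70 both contrasts were called, and for the others a change of the higher organ did not pass the test. The 127 features were chosen on the difference between these same contrasts. That choice favours estimates of opposite sign and a deeper fall in needles than in roots, so their shares and medians are a description without a test. In the 15 others the medians were -0.52 in roots and 0.41 in needles.

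PpCO2_136231 had the largest such difference. With sulfate it stood at 4.28, 2.51 and 3.79 normalized CPM in roots and 0.363, 0.265 and 0.115 in needles, and in control at 11.9, 15.9 and 10.7 in roots and 23.5, 36.0 and 19.2 in needles. The feature was thus root-sided with sulfate and needle-sided in control, a difference of 3.39 ± 0.34 (SE; adjusted p = 0.00215). PpCO2_52659 was called root-sided with sulfate, but its control contrast was not called (log2 difference -0.70, adjusted p = 0.0538) and its control values overlapped between the organs. It stood at 2.34, 3.63 and 2.52 in roots and 0.117, 0.187 and 0.0417 in needles with sulfate, against 10.9, 9.998 and 7.21 in roots and 14.8, 23.1 and 10.6 in needles in control (3.13 ± 0.36, adjusted p = 0.00331). PpCO2_24041 was near 0 in roots under both treatments and stood in needles at 4.17, 7.59 and 4.55 in control and 0.129, 0.386 and 0.104 with sulfate, a difference of 3.00 ± 0.29 (adjusted p = 0.00173). PpCO2_24041 was below the filter of the sulfate contrast. Its root means, 0.00594 with sulfate and 0.0232 in control, lay below the pseudocount. A root fall of like fold could not show there, so its difference rested on the lower needle levels.

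In the opposite direction PpCO2_182143 stood at 6.13, 4.90 and 8.08 normalized CPM in roots with sulfate and at 16.2, 19.3 and 20.2 in control, and needle values were 0 or near 0 in both (difference -1.40 ± 0.23, adjusted p = 0.0265). With sulfate it was at least 192-fold higher in roots than a floor of 3 reads in needles. The needle means of PpCO2_182143, 0 with sulfate and 0.0339 in control, lay below the pseudocount. A needle fall of like fold could not show there, so its difference rested on the lower root levels. Whether the organs responded differently could not be tested for this feature. PpCO2_173139 had 1.29, 1.61 and 2.16 in roots with sulfate against 3.87, 4.44 and 4.48 in control, while needles held 4.34, 5.82 and 4.21 against 4.22, 4.72 and 3.67 (-1.30 ± 0.23, adjusted p = 0.0449). PpCO2_62607 had higher needle values with sulfate, at 3.57, 3.68 and 3.23 against 1.24, 1.96 and 1.57 in control (-1.30 ± 0.21, adjusted p = 0.0294). The call was lost under 10 of 22 alternatives for PpCO2_182143, 16 of 21 for PpCO2_173139 and 11 of 21 for PpCO2_62607.

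These counts rested on single libraries. Without needle sulfate library 3 the numbers were 315 and 95, against 127 and 15 with all 12 libraries. Without root sulfate library 1 or 2 the larger count was 78 or 79, and without root control library 2 or 3 it was 84. The smaller count ran from 2 to 95 over the libraries left out. Against a null of a 2-fold difference, limma's treat test called 0 and 0, with 122 and 7 at an unadjusted p under 0.05.

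**Figure D5:**
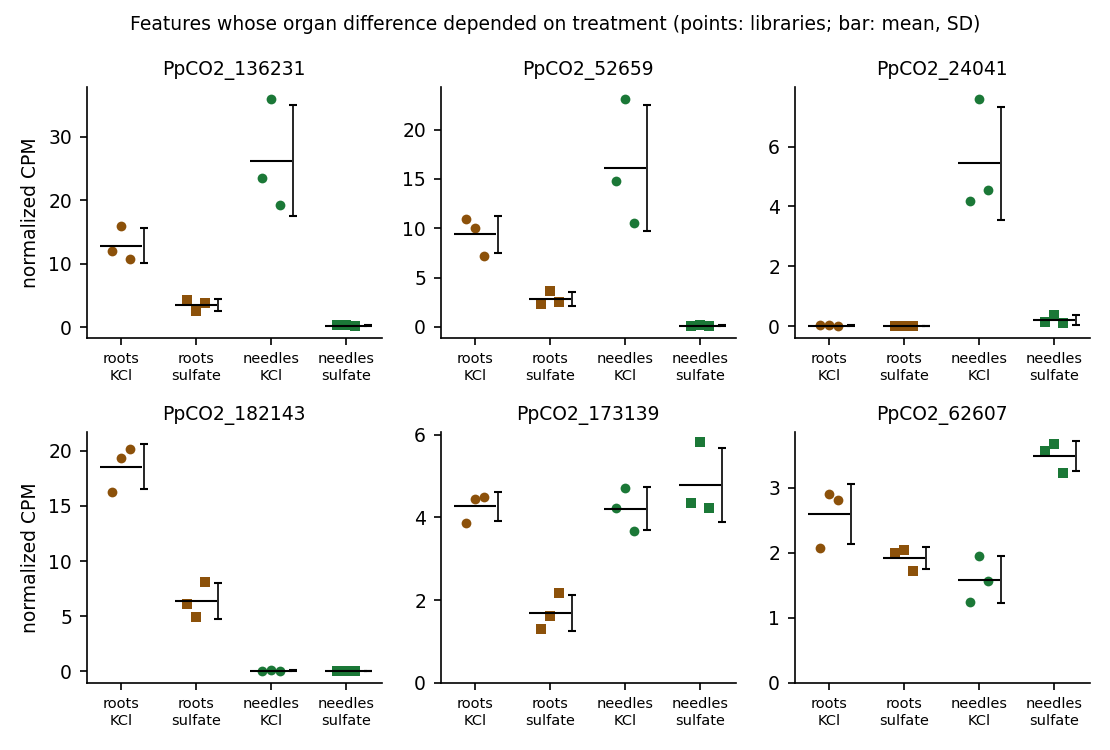
Levels of the 6 features named for a treatment-dependent organ difference (y axis, normalized CPM), in roots and needles with sulfate and in control, one point per library with the mean and SD. In PpCO2_136231 and PpCO2_52659 the needle mean lies above the root mean in control and below it with sulfate.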

How the data were processed

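RNA-seq was read as paired 150 bp reads, and BWA and bcl2fastq are named in the submitters' processing notes without a version. No header or label records the reference sequence set or the counting settings (not given in the sources used here). As deposited, values are a signal, CPM of a library size that the authors scaled, since column sums differ from those of unscaled CPM (828762 to 834858 in the sulfate root libraries). Except in needle control 2 the values were whole multiples of a step, within 0.01 of a step, so the reads were recovered.

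The filter (value of 1 or more in 3 or more of 6 libraries) preceded a fit with limma 3.58.1 (lmFit, eBayes with trend and robust options, R 4.3.3) on log2(value + 0.5), adjusted by Benjamini-Hochberg and called at 0.05. Log2 differences include the pseudocount and so are too small for low features. At low read numbers (1 to 20), even numbers made up 58.2 to 69.3%, so both mates may have been counted, and floors of 3 reads cover counting error only. The chi-square per feature between replicates was 12.2 to 15.2 in roots and 22.0 to 67.2 in needles, above sampling noise, so none was counted as a repeat. P-values measure the spread between 3 pools.

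Features were named by rule: the 5 largest differences each way (adjusted p under 0.05, no overlap, mean of at least 2), the 4 most abundant past 16-fold each way, the 3 most abundant with an interval within 0.5 of 0, and the 3 largest treatment-dependent differences each way, at most 1 per run and list. Members and lists were chosen with earlier results of these data known. The design expected unscaled CPM, for which limma is used likewise; gene lists were not used, since no gene names were paired with the identifiers here. Alternatives were edgeR 4.0.16 and DESeq2 1.42.0 on recovered reads, other pseudocounts, filters, scalings, a replicate block and leaving out each library. On simulated data of the sulfate contrast with 64945 features, 75% of 200 changed features were recovered, with 10 false calls. That simulation drew both organs from the needle means and changed only 200 features, whereas 69.0% were called in the data. It therefore cannot show errors that come from scaling organs that differ widely. In a simulation of the difference between treatments, with 66180 features, 67.5% of 200 were recovered with 5 false calls. Of the 2-fold changes in it, 32.5% upward and 35% downward were recovered. Python 3.11.15, pandas 2.3.3, numpy 2.4.6 and matplotlib 3.10.9 were used.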

Additional observations from a re-analysis of the deposited data

Results flagged for a closer look

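Differences between the treatments in the root-to-needle contrast were tested directly and called for 127 features in the root direction and 15 in the needle direction. The 6 features named among them had log2 differences, sulfate minus control, of 3.39 for PpCO2_136231, 3.13 for PpCO2_52659, 3.00 for PpCO2_24041, -1.40 for PpCO2_182143, -1.30 for PpCO2_173139 and -1.30 for PpCO2_62607. The calls of the first 3 were lost only under the test against a 2-fold null, while PpCO2_182143 lost its call under 10 of 22 alternatives, PpCO2_173139 under 16 of 21 and PpCO2_62607 under 11 of 21. For PpCO2_24041 in roots and PpCO2_182143 in needles the means lay below the pseudocount in both treatments. The differences of these features therefore rested on the levels of the other organ. Groups of 3 libraries are too small for a test of single outlying samples, so none was run.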

How the results depend on the processing

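The 28 named features were recomputed under 525 settings in all; none changed direction, 470 kept their side of the threshold, 53 lost the call and 2 gained it. Of 170 recomputed counts and shares, 127 stayed within 1.5 times the reported count or 1 SD of the share and 43 did not. Raising the filter to a minimum of 5 gave 14090 features higher in roots and 13129 higher in needles (control 13502 and 12544), and 84 with a larger root-sided difference under sulfate; fewer features were tested there. Testing against a 2-fold null with limma's treat gave 8272 and 8566 (control 7469 and 8350), and 0 and 0 for the difference between treatments. The numbers past 16-fold, 757 and 1710, were 2658 and 3164 with a pseudocount of 0.1, 140 and 716 with a pseudocount of 2, 3145 and 3621 with edgeR, and 3123 and 3665 with DESeq2, so they depend on how low values are treated. A fit over all 24 libraries gave 194 and 44 treatment-dependent features. For features at 0 reads, a mean of at least 5 in the other organ left 272 and 114, and allowing at most 2 reads per library gave 566 for roots. The signal shares became 10.8 and 32.1% at 4-fold, and the root share 3.52% with plain CPM.

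Leaving out each library in turn gave 21849 to 27671 features higher in roots, 18264 to 21801 higher in needles, 745 to 775 and 1657 to 1830 past 16-fold, 779 to 977 at 0 reads in needles and 278 to 457 at 0 reads in roots. The control contrast gave 21095 to 22765 and 17871 to 19435. Treatment-dependent features numbered 78 to 315 on the root side and 2 to 95 on the needle side. The smaller count stayed within 1.5 times 15 only without root sulfate library 3 (17) or root control library 1 (19). Keeping the same tested features when a library was left out or the scaling changed, the alternatives for the control contrast and those for stem and cotyledons were chosen after seeing the data.

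Replicate numbers shared by roots and needles were checked by correlating deviations from the group means. Same-numbered libraries correlated at 0.183, 0.0729 and 0.102 with sulfate and 0.188, 0.378 and 0.183 in control, not all above 0.1, so the numbers were not taken to pair the libraries. With the replicate block the counts were 24536 and 20089, and 140 and 21 for the difference between treatments. Each library correlated best with its own number, a hint from the data and not from the design. edgeR and DESeq2 were not run for the difference between treatments, since reads were not recovered for needle control 2. Levels of a few reads are limited by depth.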

Other observations

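Traces of needle-sided transcripts were not spread evenly over the root libraries. Of the 1631 needle-sided features past 16-fold with a root value above 0, root library 2 held the highest root value for 794 (48.7%), against 24.7% and 26.6% for libraries 1 and 3. Over all tested features root library 2 was highest for 34.6%. In the needles the root-sided features showed no such library, with 30.8, 34.7 and 34.4% of 590 features. The cause was not tested.

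Among features called in both treatments, 38357 had the same direction and 67 the opposite one, and 49 of the 67 were among those called for a difference between treatments.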
